A study of Homo sapiens with 12 samples.

Results

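Interferon-stimulated genes encode the antiviral proteins, sensors and antigen processing machinery that cells make in response to interferons. They were followed here over 12 Affymetrix arrays of K562 cells, an established human line that the labels class as AML. The set was a list of 44 gene symbols, of which 43 had a probe set, among 11963 genes tested. STAT2 was not analysed here. Each gene was read by 1 probe set, the one with the highest mean over the 12 arrays. All cells were given recombinant Wnt3a at 100 ng/ml in serum-free medium and RNA was taken after 8 h. Each of the 4 groups had 3 arrays. The CXXC5 knockdown group carried shRNA against CXXC5 and the scrambled shRNA group a control shRNA, both from the lentiviral vector pLKO by stable infection. The CXXC5 overexpression group had been transfected transiently, by nucleofection, with CXXC5 in the vector pEGFP-C2, and the empty vector group with pEGFP-C2 alone. Clones for a pair of CXXC5 shRNAs are listed, without saying which knockdown array carried which. CXXC5 itself was not analysed here, as 0 probe sets were paired with it, and the groups are called by their labels. Stable infection, the lentiviral backbone and an shRNA go together in these groups, as do transient transfection, the plasmid and EGFP, so these cannot be told apart.

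As background, type I interferons bind a receptor made of IFNAR1 and IFNAR2, whose kinases are JAK1 and TYK2. A complex that holds IRF9 then binds a DNA element, the interferon-stimulated response element or ISRE, in the promoters of antiviral genes. Interferon gamma induces IRF1, which drives genes of the immunoproteasome and of peptide transport. Cytosolic sensors such as RIGI and IFIH1 recognise viral RNA and can start interferon production. K562 cells are known to have lost the chromosomal cluster of type I interferon genes. The list holds targets of both kinds, so it is not a readout of 1 interferon.

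The values are log2 expression values, and array medians lay between 6.65 and 6.71. The labelled cell type carried its erythroid markers: of 10 measured, 8 were above the 75th percentile of all genes by mean value. Dendritic, T and NK cell and B cell markers had median percentiles of 29.0, 26.0 and 23.5, and monocyte markers one of 17.3. Scrambled shRNA replicate 3 differed from the rest in a control for RNA quality, with a 3' minus 5' difference of GAPDH probe sets of 0.87 log2, against 0.227 to 0.335 on the other 11 arrays. For some genes of the list the changes without this array are given as well. Changes of single genes outside the list are given only with it. In cell culture RNA, fewer cells expressing a gene and less RNA per cell cannot be told apart.

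Members were called in both directions in each of the 6 comparisons, and falls outnumbered rises most across deliveries. A gene was called, and is said to rise or fall, where its adjusted p was under 0.05. In lentiviral minus nucleofected arrays, which sets the mean of knockdown and scrambled shRNA against the mean of overexpression and empty vector, 2 of 43 rose and 11 fell. That is 4.65% and 25.6% of the members, and over all genes 27.8% were called, 16.1% upward and 11.7% downward. This comparison balances the CXXC5 label only if overexpression and knockdown have equal effects, and these effects differed for 16 of 43 members. The falls were in RSAD2, TRIM22, GBP2, MX2, IFI6, IFIT3, IFI44L, HERC5, IFI35, PSMB8 and SP110, and the rises in ISG15 and EIF2AK2. Only RSAD2 and MX2 fell both between the controls (scrambled shRNA and empty vector) and in knockdown minus overexpression, as did 1.19% of all genes. PSMB8 fell by 0.77 between the controls and rose by 0.34 in knockdown minus overexpression. GBP2 stood at -0.04 between the controls, uncalled, and fell by 0.95 in knockdown minus overexpression. The calls of HERC5 and EIF2AK2 ended without any of 8 and 6 of the 12 arrays, with adjusted p up to 0.0768 and 0.0574. That of EIF2AK2 ended also with all probe sets averaged. Its other probe set stood at -0.07 between the controls and at 0.01 in knockdown minus overexpression. In scrambled shRNA minus empty vector, where neither group carries a CXXC5 label, 4 rose and 10 fell, which is 9.3% and 23.3%, with 16.2% and 15.3% over all genes and 31.5% in either direction. The members' share in either direction was 32.6%, near that background. In CXXC5 knockdown minus CXXC5 overexpression, which shares no array with the comparison of the controls, 5 rose and 6 fell, or 11.6% and 14.0%, with 8.97% and 6.37% over all genes. Delivery and the CXXC5 label change together in that comparison, so it does not measure delivery alone. With CXXC5 overexpression minus empty vector 2 rose and 6 fell, or 4.65% and 14.0%, with 3.61% and 3.37% over all genes. With CXXC5 knockdown minus scrambled shRNA 6 rose and 2 fell, or 14.0% and 4.65%, with 8.79% and 5.22% over all genes. This comparison shares the 3 scrambled shRNA arrays with that of the controls, with opposite sign. A low scrambled shRNA level alone thus gives a rise in the first and a fall in the second. Of the 23 called members, 10 had their lowest mean with scrambled shRNA, 5 with knockdown, 4 with overexpression and 4 with empty vector. The effects of overexpression and knockdown differed for 16 of 43 members, 6 upward and 10 downward, against 20.4% of all genes in either direction.

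**Figure D1:**
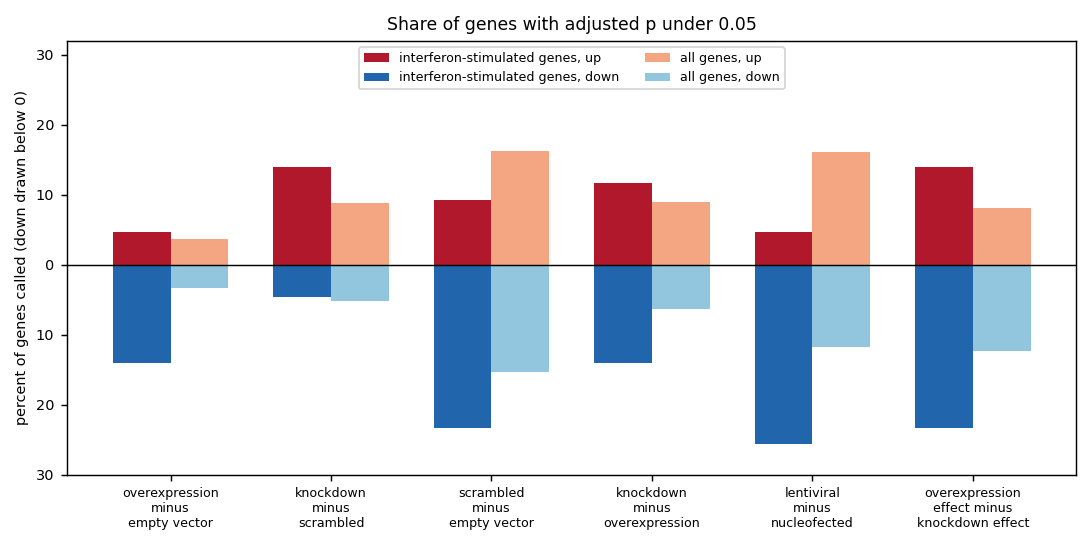
Percent of genes called in each comparison, upward above 0 and downward below it, for the 43 interferon-stimulated genes (dark bars) and for all 11963 genes (light bars). In the lentiviral minus nucleofected comparison the members' share of falls was 25.6%, against 11.7% of all genes.

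The members went both ways. Their median change stood at -0.065 log2 in lentiviral minus nucleofected arrays and at -0.0843 in scrambled shRNA minus empty vector, with medians of 0.0102 and 0.0172 over all genes. It stood at -0.045 with overexpression and at 0.0193 with knockdown, with medians of 0.00133 and -0.00911 over all genes. The median size of a change, whatever its sign, was 0.175 with overexpression for members and 0.0948 for all genes, and 0.112 and 0.118 with knockdown. The signed medians moved with the setting. Over all settings run, that of scrambled shRNA minus empty vector lay between -0.149, with quantile normalization, and -0.0455, with median centring, and was -0.137 without scrambled shRNA replicate 1. The medians over all genes in these settings were 0.000346, 0.056 and 0.0186. That of overexpression lay between -0.104, without the dimmest genes, and -0.0238, with all probe sets averaged, and was -0.085 without empty vector replicate 3 and -0.0823 without overexpression replicate 2. The knockdown median changed sign, to -0.0204, when arrays were centred on their medians, and to -0.0186 without scrambled shRNA replicate 3. The medians over all genes were then -0.0487 and 0.00104. Centring shifts all genes of a comparison alike, so with it the members' median stayed above that of all genes. The lentiviral median became 0.00375 when the 40% of genes with the lowest mean were left out, which kept 19 of the 43 members. All genes kept had a median of 0.00157. Across the 6 comparisons 23 of 43 members were called at least once and 20 were not, where 45.7% of all genes were called at least once. The counts within each delivery fell when single arrays were left out, and so did those over all genes. With overexpression the count of 8 became 4 without empty vector replicate 2 or overexpression replicate 3, where the count over all genes, 835, became 380 and 470. It became 5 without empty vector replicate 1 or overexpression replicate 1 or 2, with 588, 606 and 468 over all genes. With knockdown the count of 8 became 5 without scrambled shRNA replicate 3 and 4 without knockdown replicate 1, where the count over all genes, 1677, became 1474 and 1146. The overexpression split of 2 up and 6 down became 3 up and 5 down with quantile normalization or median centring.

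**Figure D2:**
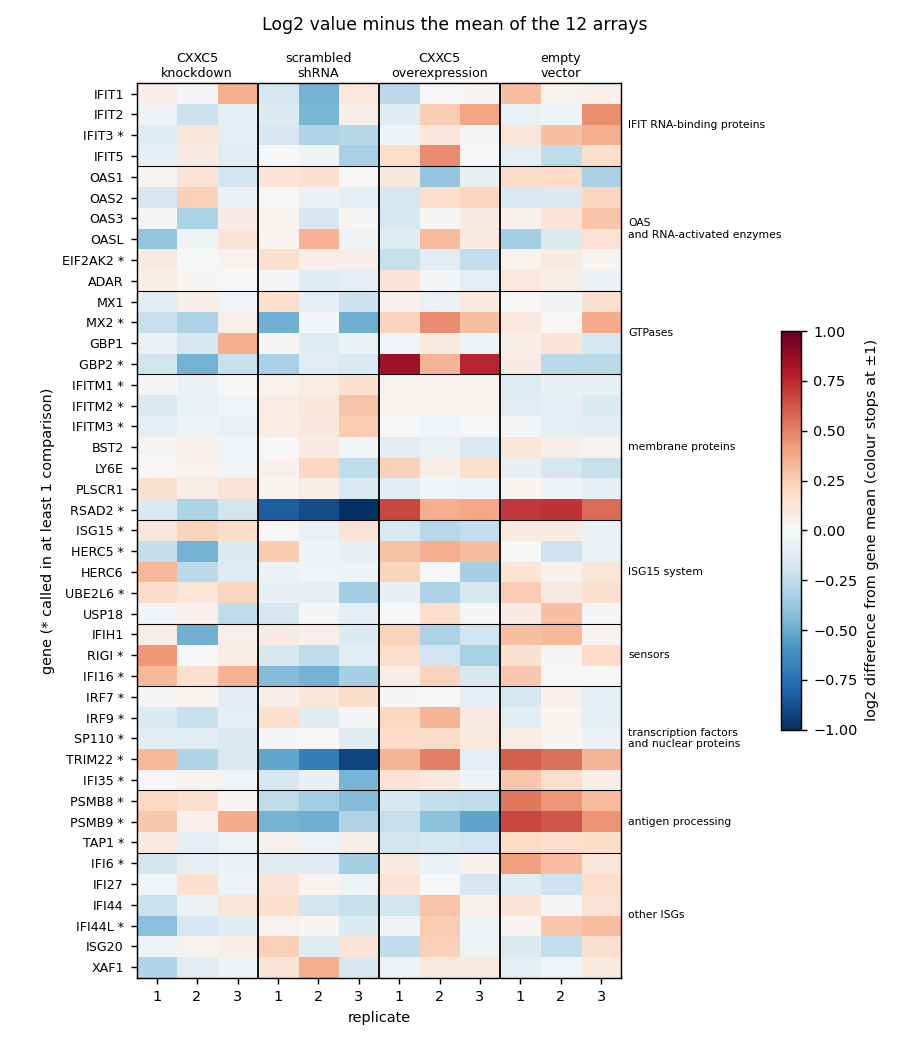
Log2 value of each of the 43 genes on each of the 12 arrays minus the mean of that gene, in blocks by role and with the arrays grouped by label. RSAD2 and TRIM22 are lowest with scrambled shRNA, PSMB8 and PSMB9 are low with both scrambled shRNA and overexpression, and GBP2 is high with overexpression.

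RSAD2 had the largest difference between deliveries. It encodes viperin, an enzyme that makes a chain-terminating nucleotide against RNA viruses. Its values were 8.29, 8.13 and 8.25 in knockdown arrays, 7.61, 7.55 and 7.38 with scrambled shRNA, 9.10, 8.80 and 8.82 with overexpression, and 9.14, 9.16 and 8.99 with empty vector. All 6 lentiviral arrays were below all 6 nucleofected ones, and knockdown stood above scrambled shRNA without overlap. Between the controls, scrambled shRNA minus empty vector, RSAD2 fell by 1.58 log2 (SE 0.0928, 2.99-fold, adjusted p = 5.75e-07). In the separate pair, knockdown minus overexpression, where the CXXC5 label changes as well, it fell by 0.68 (adjusted p = 0.000736). It rose by 0.71 with knockdown over scrambled shRNA (SE 0.0928, adjusted p = 0.000458), and by 0.64 without scrambled shRNA replicate 3. With overexpression it stood at -0.19 and was not called. IFI6, which encodes a mitochondrial and endoplasmic reticulum protein that limits cell death and flavivirus replication, was the other of 2 members whose 6 lentiviral and 6 nucleofected arrays did not overlap, both lower. Over all genes 7.34% did not overlap, 4.55% higher and 2.79% lower. The values of IFI6 were 6.17, 6.26 and 6.29 with knockdown, 6.23, 6.22 and 6.02 with scrambled shRNA, 6.44, 6.29 and 6.39 with overexpression, and 6.76, 6.66 and 6.47 with empty vector. The gap at its nearest arrays was within rounding. IFI6 fell by 0.31 across deliveries (SE 0.0599, adjusted p = 0.00392) and by 0.48 between the controls (adjusted p = 0.00145). In knockdown minus overexpression it stood at -0.13 and was not called.

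**Figure D3:**
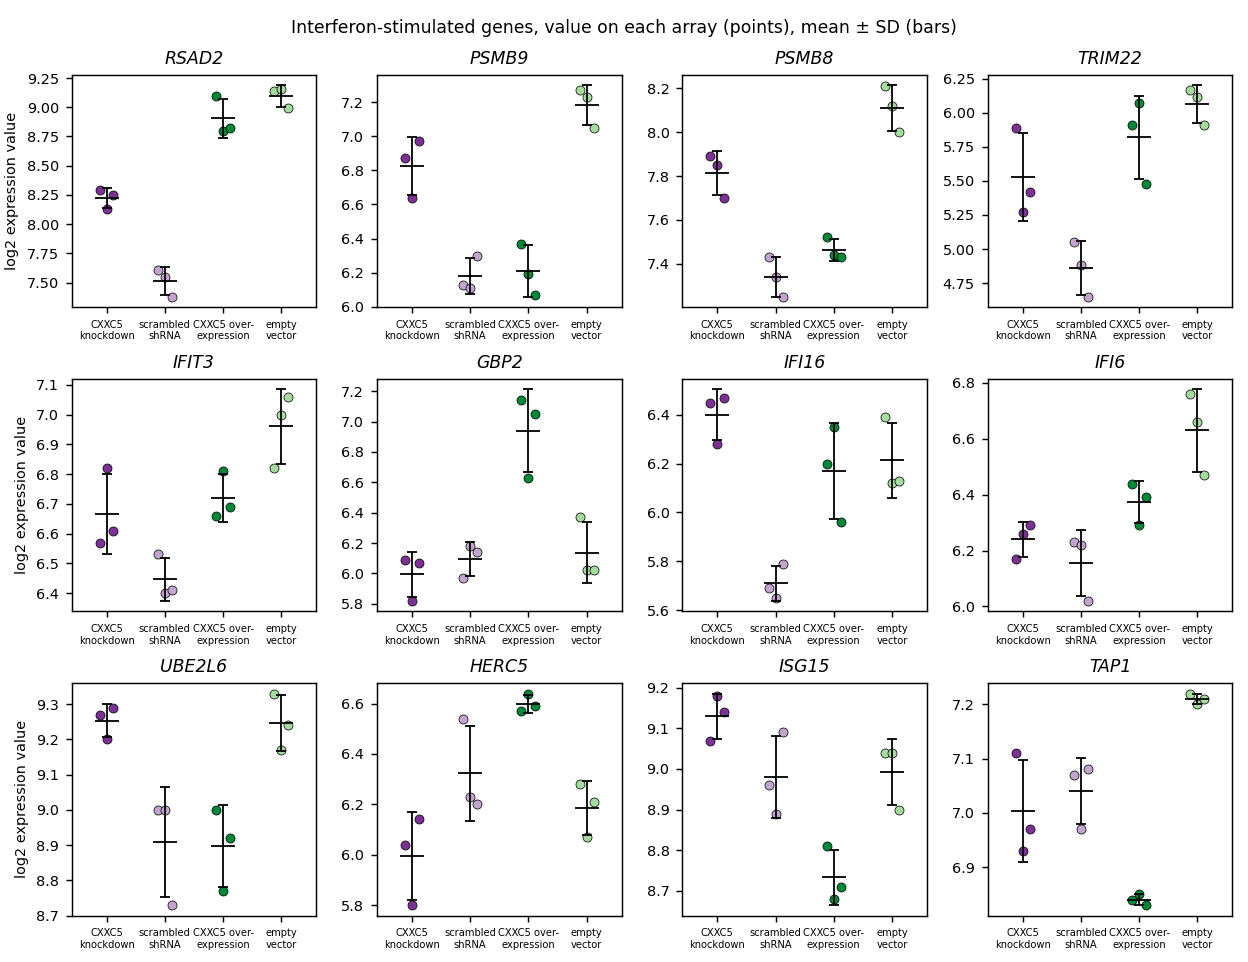
Log2 values on each array (points) with the mean and SD of 3 arrays (bars) for the 12 members with the smallest adjusted p, each panel on its own axis. RSAD2 lies between 7.38 and 8.29 on the 6 lentiviral arrays and between 8.80 and 9.16 on the 6 nucleofected ones, while PSMB9 and PSMB8 are highest with empty vector and next with knockdown.

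TRIM22, MX2, IFIT3 and IFI35 were also called lower in the lentiviral minus nucleofected comparison. In knockdown minus overexpression TRIM22 stood at -0.30, IFIT3 at -0.05 and IFI35 at -0.06, none of them called. TRIM22 encodes a nuclear E3 ubiquitin ligase that restricts retroviral transcription. Its values were 5.89, 5.27 and 5.42 with knockdown, 5.05, 4.88 and 4.65 with scrambled shRNA, 5.91, 6.07 and 5.48 with overexpression, and 6.17, 6.12 and 5.91 with empty vector. Scrambled shRNA was below every other group, and knockdown overlapped overexpression. Between the controls TRIM22 fell by 1.21 (SE 0.176, 2.31-fold, adjusted p = 0.000417) and by 0.75 across deliveries (adjusted p = 0.0016). Its rise of 0.67 with knockdown (adjusted p = 0.0252) was lost on leaving out knockdown replicate 1 or replicate 2 or 3 of the scrambled shRNA, with changes from 0.48 to 0.80 over the 6 arrays left out in turn and adjusted p up to 0.1. Without scrambled shRNA replicate 3 the rise was 0.56. MX2 encodes a dynamin-like GTPase that blocks nuclear import of lentiviral genomes. Its values were 4.76, 4.67 and 5.04 with knockdown, 4.51, 4.97 and 4.50 with scrambled shRNA, 5.21, 5.46 and 5.29 with overexpression, and 5.09, 4.98 and 5.36 with empty vector. MX2 and RSAD2 were the 2 of 43 members that fell in both of the separate pairs, where 1.19% of all genes did. The MX2 probe set was dim, at the 20.6th percentile of all genes by mean value, where background signal can weigh on a change. MX2 fell by 0.48 between the controls (adjusted p = 0.0231) and by 0.50 in knockdown minus overexpression (adjusted p = 0.0364). Both calls depended on single arrays. The first was lost without empty vector replicate 3 or scrambled shRNA replicate 1 or 3, the second without overexpression replicate 2 or 3 or knockdown replicate 1 or 2. The adjusted p then reached 0.0899 and 0.124. The fall of 0.49 across deliveries was called without each of the 12 arrays in turn.

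IFIT3, whose protein joins IFIT complexes that bind viral RNA, had values of 6.57, 6.82 and 6.61 with knockdown, 6.53, 6.40 and 6.41 with scrambled shRNA, 6.66, 6.81 and 6.69 with overexpression, and 6.82, 7.00 and 7.06 with empty vector. Scrambled shRNA was lowest, apart from the other groups, and knockdown overlapped overexpression. Empty vector had the highest mean, but its lowest array and knockdown replicate 2 both read 6.82. The gap to the highest overexpression array, 6.81, was within rounding. Between the controls IFIT3 fell by 0.51 (SE 0.0853, adjusted p = 0.000963). IFI35, an interferon-induced leucine zipper protein, had values of 8.01, 8.05 and 7.99 with knockdown, 7.85, 7.94 and 7.55 with scrambled shRNA, 8.15, 8.11 and 7.98 with overexpression, and 8.29, 8.19 and 8.08 with empty vector. It fell by 0.40 between the controls (adjusted p = 0.00811), or by 0.28 without scrambled shRNA replicate 3, its lowest array. Its fall of 0.23 across deliveries was not called without 5 of the 12 arrays in turn, empty vector replicate 1 or 2, overexpression replicate 1 or 2 or knockdown replicate 3, where adjusted p reached 0.0551. IFI44L, at the 2.17th percentile and the dimmest probe set of the list, had values of 2.49, 2.74 and 2.78 with knockdown, 2.94, 2.92 and 2.77 with scrambled shRNA, 2.87, 3.16 and 2.86 with overexpression, and 2.93, 3.18 and 3.21 with empty vector. Its fall of 0.26 across deliveries (adjusted p = 0.0246) was not called without empty vector replicate 2 or 3, overexpression replicate 2 or scrambled shRNA replicate 3, where adjusted p reached 0.0586.

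Stretches of 3 of these promoters are shown because they hold the ISRE core described above. They come from RefSeq promoter windows on GRCh38.p14, on the gene's own strand. Capitals mark matches to the ISRE core, which is GAAA, any 2 bases and GAAA again, or to the same core read from the other strand, where TTTC takes the place of GAAA. The RSAD2 stretch is chr2:6877612-6877661 on the plus strand, the IFIT3 stretch chr10:89327821-89327904 on the plus strand, and the IFI6 stretch chr1:27672256-27672368 on the minus strand.
RSAD2: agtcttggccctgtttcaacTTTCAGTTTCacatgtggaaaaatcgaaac
IFIT3: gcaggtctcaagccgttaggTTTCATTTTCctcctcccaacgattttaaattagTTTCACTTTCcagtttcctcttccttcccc
IFI6: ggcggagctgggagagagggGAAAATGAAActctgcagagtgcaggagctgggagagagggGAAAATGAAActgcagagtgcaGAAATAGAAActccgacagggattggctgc
RSAD2 has 1 match, IFIT3 has 2 and IFI6 has 3 in the stretches shown. A match describes the letters only.

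Genes of the immunoproteasome and peptide transport fell with CXXC5 overexpression, and PSMB9 and PSMB8 rose with knockdown. PSMB9 encodes an inducible catalytic subunit of the immunoproteasome, which cuts proteins into peptides for class I presentation. Its values were 6.87, 6.64 and 6.97 with knockdown, 6.13, 6.11 and 6.30 with scrambled shRNA, 6.37, 6.19 and 6.07 with overexpression, and 7.27, 7.23 and 7.05 with empty vector. Empty vector was highest, knockdown next, and overexpression and scrambled shRNA overlapped at the bottom. PSMB9 fell by 0.97 with overexpression (SE 0.103, 1.96-fold, adjusted p = 0.000184) and rose by 0.65 with knockdown (SE 0.103, 1.57-fold, adjusted p = 0.00154). The difference of these effects was -1.62 (SE 0.146, adjusted p = 1.67e-05). Between the controls it fell by 1.00 (adjusted p = 3.81e-05), yet it was higher by 0.62 in knockdown minus overexpression (adjusted p = 0.0025), so neither delivery had the higher level in both pairs.

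PSMB8, another inducible catalytic subunit, had the same order of groups. Its values were 7.89, 7.85 and 7.70 with knockdown, 7.43, 7.34 and 7.25 with scrambled shRNA, 7.52, 7.44 and 7.43 with overexpression, and 8.21, 8.12 and 8.00 with empty vector. All neighbouring groups were apart, with overexpression above scrambled shRNA by less than rounding at the nearest arrays. PSMB8 fell by 0.64 with overexpression (SE 0.0754, adjusted p = 0.000414) and rose by 0.47 with knockdown (SE 0.0754, adjusted p = 0.0016). As with PSMB9 the pairs across deliveries differed in sign, at -0.77 between the controls (adjusted p = 2.74e-05) and 0.34 in knockdown minus overexpression (adjusted p = 0.0104). UBE2L6, the conjugating enzyme that passes ISG15 to its targets, had values of 9.27, 9.20 and 9.29 with knockdown, 9.00, 9.00 and 8.73 with scrambled shRNA, 9.00, 8.77 and 8.92 with overexpression, and 9.33, 9.17 and 9.24 with empty vector. It fell by 0.35 with overexpression (SE 0.0862, adjusted p = 0.0314) and rose by 0.34 with knockdown (adjusted p = 0.0195). The first call ended without any of 5 arrays, all but overexpression replicate 1, with adjusted p up to 0.12. The second ended without scrambled shRNA replicate 3 or knockdown replicate 1 or 3, with adjusted p up to 0.0682 and a change of 0.26 without the first of these. The difference of the effects on UBE2L6, -0.69 (adjusted p = 0.00175), was called without each of the 12 arrays in turn. Its rise of 0.36 in knockdown minus overexpression was lost without overexpression replicate 2 or knockdown replicate 3, with adjusted p up to 0.0696. PSMB8, PSMB9 and UBE2L6 were the 3 of 43 members called both with overexpression, down, and with knockdown, up, as were 2.32% of all genes. No member was called the same way in both, as were 0.0585% of all genes.

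TAP1, a subunit of the transporter that carries peptides into the endoplasmic reticulum, had values of 7.11, 6.93 and 6.97 with knockdown, 7.07, 6.97 and 7.08 with scrambled shRNA, 6.84, 6.85 and 6.83 with overexpression, and 7.22, 7.20 and 7.21 with empty vector. Empty vector was above and overexpression below both lentiviral groups, which overlapped. TAP1 fell by 0.37 with overexpression (SE 0.0605, adjusted p = 0.00368) and stood at -0.04 with knockdown. On chromosome 6 of GRCh38.p14, TAP1 starts at 32853704 on the minus strand and PSMB9 at 32854192 on the plus strand, so both are read outward from a shared stretch of 488 bases. The stretch of it shown here is chr6:32853803-32853858, on the strand of TAP1, and the PSMB8 stretch is chr6:32844022-32844071 on the minus strand. Capitals mark the ISRE core as before, and the first shows 2 overlapping matches.
TAP1: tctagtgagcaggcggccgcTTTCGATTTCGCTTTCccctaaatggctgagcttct
PSMB8: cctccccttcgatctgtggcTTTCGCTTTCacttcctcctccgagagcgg
The PSMB9 window held no match to this core.

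**Figure D4:**
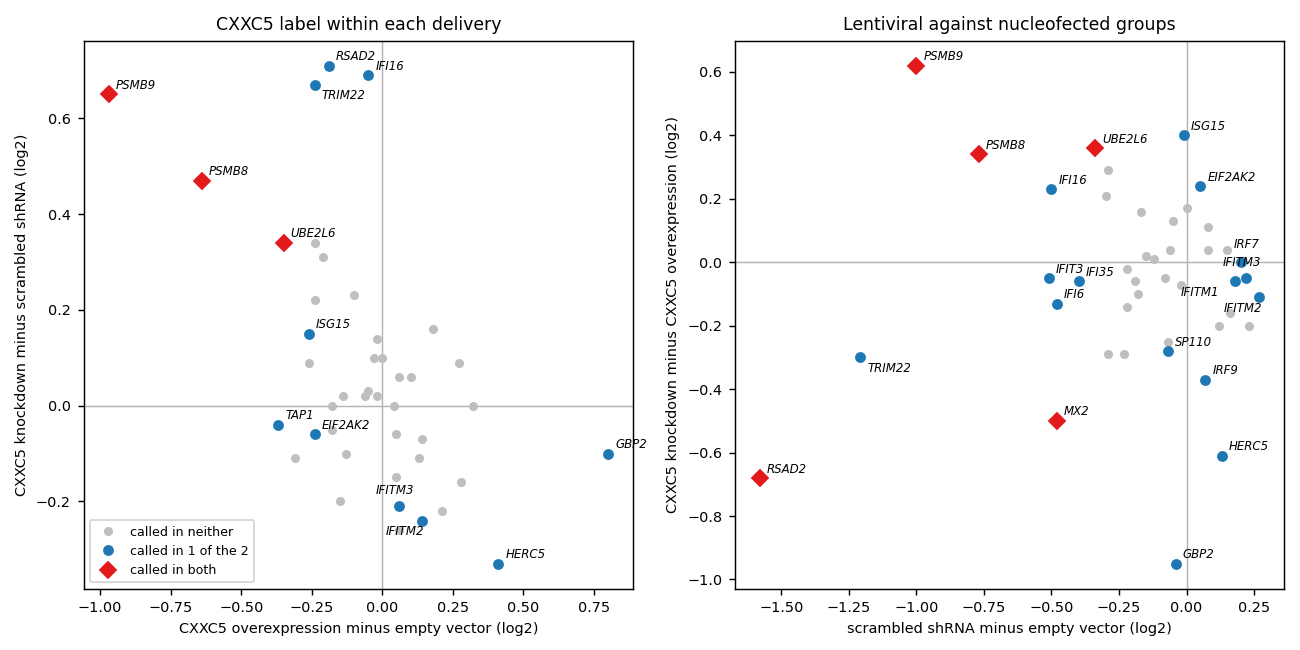
Log2 change of each of the 43 genes in pairs of comparisons that share no array: CXXC5 overexpression minus empty vector against CXXC5 knockdown minus scrambled shRNA on the left, and scrambled shRNA minus empty vector against knockdown minus overexpression on the right. Red diamonds mark genes called in both, which are PSMB9, PSMB8 and UBE2L6 on the left, and these with RSAD2 and MX2 on the right.

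IRF1, the transcription factor that drives these genes downstream of interferon gamma, is not on the list but its values stand beside theirs. They were 7.75, 7.73 and 7.70 with knockdown, 7.44, 7.57 and 7.57 with scrambled shRNA, 7.22, 7.14 and 6.98 with overexpression, and 7.85, 7.81 and 7.80 with empty vector. The groups did not overlap, and their order was empty vector, knockdown, scrambled shRNA, overexpression. IRF1 fell by 0.71 with overexpression and by 0.29 between the controls, and stood at 0.20 with knockdown, where it was not called. Its part in the values of PSMB9, PSMB8 and TAP1 was not tested. In the wider list of antigen presentation genes, 16 measured, 0 rose and 4 fell with overexpression, and 3 rose and 1 fell with knockdown. Over all genes 3.61% rose and 3.37% fell with overexpression, and 8.79% rose and 5.22% fell with knockdown. ERAP1, which trims peptides in the endoplasmic reticulum, fell by 0.43 with overexpression and rose by 0.42 with knockdown. Its relative ERAP2, dim at the 12.4th percentile, fell by 0.71 with overexpression and by 0.92 in scrambled shRNA minus empty vector. PSMB10, the remaining inducible proteasome subunit, fell by 0.30 with overexpression and stood at 0.13 with knockdown, where it was not called. PDIA3, a chaperone of the peptide loading complex, rose by 0.39 with knockdown and stood at -0.19 with overexpression, where it was not called.

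Among sensors, IFI16 was set apart by its low level with scrambled shRNA. IFI16 binds DNA in nucleus and cytosol and signals through STING. Its values were 6.45, 6.28 and 6.47 with knockdown, 5.69, 5.65 and 5.79 with scrambled shRNA, 6.20, 6.35 and 5.96 with overexpression, and 6.39, 6.12 and 6.13 with empty vector. The scrambled shRNA arrays were below all others, while the other 3 groups overlapped in turn. IFI16 rose by 0.69 with knockdown (SE 0.104, adjusted p = 0.00115), or by 0.73 without scrambled shRNA replicate 3, and fell by 0.50 between the controls (adjusted p = 0.00368). Its other 2 probe sets gave 0.67 and 0.45 with knockdown, and -0.53 and -1.16 between the controls. They differed on knockdown minus overexpression, at 0.23 for the probe set used, 0.20 for the second and -0.75 for the third. RIGI, the sensor of short double-stranded RNA, had group means of 5.57 ± 0.23 with knockdown, 5.24 ± 0.08 with scrambled shRNA, 5.29 ± 0.26 with overexpression and 5.53 ± 0.09 with empty vector (SD, n = 3). It was called only for the difference of effects, at -0.58 (adjusted p = 0.0438), a call that ended without any of 10 of the 12 arrays, all but overexpression replicate 1 and knockdown replicate 2, with changes from -0.72 to -0.45 and adjusted p up to 0.102. IFIH1, the sensor of long double-stranded RNA, was not called, with group means from 5.43 to 5.77.

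GBP2 and HERC5 were the 2 members that rose with CXXC5 overexpression. GBP2, a guanylate-binding GTPase induced by interferon gamma, had values of 6.09, 5.82 and 6.07 with knockdown, 5.97, 6.18 and 6.14 with scrambled shRNA, 7.14, 6.63 and 7.05 with overexpression, and 6.37, 6.02 and 6.02 with empty vector. The 3 overexpression arrays were above all 9 others, which overlapped. GBP2 rose by 0.80 with overexpression (SE 0.137, 1.74-fold, adjusted p = 0.0046), by between 0.70 and 0.95 with any 1 of the 6 arrays left out. It fell by 0.95 in knockdown minus overexpression (adjusted p = 0.00108). HERC5, the ligase that attaches ISG15 to newly made proteins, had values of 6.04, 5.80 and 6.14 with knockdown, 6.54, 6.23 and 6.20 with scrambled shRNA, 6.57, 6.64 and 6.59 with overexpression, and 6.28, 6.07 and 6.21 with empty vector. The overexpression arrays were above all 9 others. HERC5 rose by 0.41 with overexpression (SE 0.105, adjusted p = 0.0351), but the call was lost without any of 5 of the 6 arrays, all but empty vector replicate 1, with adjusted p up to 0.144. It stood at -0.33 with knockdown without a call, and the difference of the effects was 0.74 (SE 0.148, adjusted p = 0.00388).
The HERC5 promoter stretch is chr4:88456974-88457074 on the plus strand, and that of ISG15, whose protein HERC5 attaches, is chr1:1013364-1013419 on the plus strand. Both hold the ISRE core, in capitals, on opposite strands.
HERC5: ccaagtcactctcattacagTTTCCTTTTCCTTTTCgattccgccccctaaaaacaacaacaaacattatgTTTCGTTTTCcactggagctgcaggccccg
ISG15: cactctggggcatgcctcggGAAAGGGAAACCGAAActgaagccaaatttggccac

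ISG15, the ubiquitin-like modifier, went the other way from HERC5. Its values were 9.07, 9.18 and 9.14 with knockdown, 8.96, 8.89 and 9.09 with scrambled shRNA, 8.81, 8.68 and 8.71 with overexpression, and 9.04, 9.04 and 8.90 with empty vector. Overexpression was below all other arrays. ISG15 fell by 0.26 with overexpression (SE 0.0691, adjusted p = 0.0447). This call was lost without any of 5 of the 6 arrays, all but empty vector replicate 3, with adjusted p up to 0.159, and after quantile normalization or median centring. It was higher by 0.40 in knockdown minus overexpression (SE 0.0691, adjusted p = 0.00319), which was called without each of these 6 arrays in turn. USP18, which removes ISG15 and blocks the interferon receptor, was not called, with group means from 5.69 to 5.91. EIF2AK2, the RNA-activated kinase PKR, had values of 9.45, 9.35 and 9.39 with knockdown, 9.51, 9.42 and 9.42 with scrambled shRNA, 9.12, 9.25 and 9.11 with overexpression, and 9.39, 9.44 and 9.38 with empty vector. It fell by 0.24 with overexpression (adjusted p = 0.0288), not called without any of 5 arrays, all but overexpression replicate 2, with adjusted p up to 0.115, and its other probe set stood at -0.13.

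IRF9, a DNA-binding part of the complex at the ISRE, and SP110, a nuclear body protein, had their highest mean with overexpression. Their lowest mean was with knockdown, for SP110 on the probe set used. IRF9 values were 7.61, 7.53 and 7.65 with knockdown, 7.91, 7.63 and 7.73 with scrambled shRNA, 7.96, 8.09 and 7.83 with overexpression, and 7.64, 7.77 and 7.65 with empty vector. IRF9 fell by 0.37 in knockdown minus overexpression (SE 0.0855, adjusted p = 0.0141), a call lost without overexpression replicate 2 or knockdown replicate 2, with adjusted p up to 0.0621. SP110 values were 8.16, 8.16 and 8.13 with knockdown, 8.25, 8.27 and 8.14 with scrambled shRNA, 8.46, 8.46 and 8.38 with overexpression, and 8.35, 8.30 and 8.21 with empty vector. SP110 fell by 0.28 in knockdown minus overexpression (SE 0.0596, adjusted p = 0.00894), and its other 3 probe sets stood between -0.53 and -0.13. A pair of these had their lowest mean with scrambled shRNA, at 8.03 and 6.41, against 8.08 and 6.44 with knockdown. In knockdown minus scrambled shRNA the probe set used stood at -0.07 and was not called.

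The IFITM genes encode membrane proteins that block virus entry by fusion, and all 3 had their highest mean with scrambled shRNA. IFITM2 had values of 11.95, 12.03 and 12.07 with knockdown, 12.17, 12.22 and 12.38 with scrambled shRNA, 12.13, 12.13 and 12.12 with overexpression, and 11.98, 12.01 and 11.96 with empty vector. It rose by 0.27 in scrambled shRNA minus empty vector (SE 0.0632, adjusted p = 0.00664), or by 0.21 without scrambled shRNA replicate 3, and fell by 0.24 with knockdown (adjusted p = 0.024). IFITM3 had values of 11.70, 11.75 and 11.72 with knockdown, 11.86, 11.90 and 12.04 with scrambled shRNA, 11.79, 11.76 and 11.78 with overexpression, and 11.77, 11.70 and 11.67 with empty vector. It rose by 0.22 in scrambled shRNA minus empty vector (adjusted p = 0.0159) and fell by 0.21 with knockdown (adjusted p = 0.0401). Without scrambled shRNA replicate 3 the knockdown changes were -0.18 for IFITM2 and -0.15 for IFITM3, with adjusted p of 0.0535 and 0.088. The knockdown call of IFITM2 ended also without knockdown replicate 1 or 2, with adjusted p up to 0.0934. That of IFITM3 ended without any of 5 of the 6 arrays, all but scrambled shRNA replicate 1, with adjusted p up to 0.117, and its control call without empty vector replicate 2 or 3, with adjusted p up to 0.0541. IFITM1, the brightest probe set of the list, had values of 13.19, 13.15 and 13.20 with knockdown, 13.24, 13.28 and 13.36 with scrambled shRNA, 13.24 on each overexpression array, and 13.08, 13.13 and 13.13 with empty vector. It rose by 0.18 in scrambled shRNA minus empty vector (adjusted p = 0.0248), a call that ended without empty vector replicate 1 or 2 or scrambled shRNA replicate 2 or 3, with adjusted p up to 0.074. These genes are closely related, and a probe set of this family can read more than 1 of them, so their separate values are uncertain. IRF7, the factor that amplifies interferon production, rose by 0.20 between the controls at an adjusted p of 0.05 after rounding, and the call ended without empty vector replicate 1 or 3 or scrambled shRNA replicate 2 or 3, with adjusted p up to 0.17.

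Not called in any of the 6 comparisons were 20 members. They were IFIT1, IFIT2 and IFIT5, the OAS family genes OAS1, OAS2, OAS3 and OASL, the RNA editor ADAR, the GTPases MX1 and GBP1, the membrane proteins BST2, LY6E and PLSCR1, HERC6, USP18, IFIH1, IFI27, IFI44, ISG20 and XAF1. The spread of their 4 group means, on the probe sets used, ran from 0.08 log2 for MX1 and IFI27 to 0.35 for IFIT2. The other probe sets of OAS1 and OAS2 stood at 0.43 and 0.46 in scrambled shRNA minus empty vector. Those used stood at 0.08 and -0.02 there. The other probe sets were dimmer, with means of 3.91 and 4.37, and have no test here. Of the 43 members, 11 lay below the 25th percentile of all genes by mean value, among them IFIT1, MX1, OAS1, OAS2 and IFI44. The called genes MX2 and IFI44L were also among these 11. LY6E, which blocks coronavirus fusion, had the largest uncalled change with overexpression, at 9.05 ± 0.09 with overexpression and 8.73 ± 0.08 with empty vector (SD, n = 3), a difference of 0.32 (adjusted p = 0.081). IFIT5 depended on the probe set. The one used stood at 0.27 with overexpression without a call. The other read 3.58, 3.51 and 3.50 with knockdown, 3.71, 3.74 and 3.86 with scrambled shRNA, 5.10, 5.95 and 5.06 with overexpression, and 3.67, 3.63 and 4.26 with empty vector. Its overexpression arrays were above all 9 others, a difference of 1.52 from empty vector and of -1.84 in knockdown minus overexpression. This probe set was noticed after its values were seen and has no test here.

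The ISRE core was found in promoters of both called and uncalled members. RefSeq promoter windows of 300 bases, from 250 before to 50 after a start, were matched by symbol for 34 of the 44 listed genes, and the core on either strand was in at least 1 window of 22 of them, or 64.7%. Over all 27305 genes with a window the share was 4.38%. Among measured members with a window it was found in 11 of 18 called and 11 of 15 uncalled genes. The core of the gamma-activated site, TTCNNNGAA, which reads the same on both strands, was in windows of 11 of the 34, or 32.4%, against 9.38% of all genes. PSMB9, UBE2L6, IFI16 and RIGI had a window without an ISRE core, which says only that these letters are not in that window.

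Upstream genes of the pathway were called in both directions, as were all genes. The shares of all genes were 16.2% up and 15.3% down in scrambled shRNA minus empty vector. They were 8.79% and 5.22% with knockdown, and 3.61% and 3.37% with overexpression. Of 14 measured interferon ligands, all at or below the 24.5th percentile of all genes, 4 were called higher in scrambled shRNA minus empty vector and 0 lower, and none was called with overexpression or knockdown by limma, where unadjusted p under 0.05 was reached by 1 and 0. Of these 4, IFNA14, IFNA17 and IFNW1 belong to the type I cluster that K562 cells are known to have lost, so their probe sets cannot be taken to show expression of those genes. The other was IFNG, at 0.39 and the 6.46th percentile. Of 9 receptor and kinase genes, 4 were higher and 1 lower in scrambled shRNA minus empty vector. STAT3, a signal transducer shared with cytokine receptors, rose by 0.71 there and fell by 0.41 with knockdown, and JAK1 rose by 0.42 there and by 0.30 with overexpression. The receptor chain IFNGR2 fell by 0.38 with knockdown. Of 13 pathway inhibitors, 3 rose and 0 fell with knockdown and 0 were called with overexpression, where 4 had unadjusted p under 0.05. The STAT inhibitor PIAS3 rose by 0.43 with knockdown and fell by 0.41 between the controls, and the phosphatase PTPN6 fell by 0.46 there.

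Among 15 genes of nucleic acid sensing, 2 rose and 2 fell with knockdown, and 1 rose and 1 fell with overexpression. Of all genes, 8.79% rose and 5.22% fell with knockdown, and 3.61% rose and 3.37% fell with overexpression. TBK1, the kinase that activates IRF3, had means of 9.89 with knockdown, 9.30 with scrambled shRNA, 9.67 with overexpression and 9.98 with empty vector. It rose by 0.59 with knockdown, fell by 0.30 with overexpression and fell by 0.67 between the controls. The first and the last of these changes share the scrambled shRNA arrays, so they are not separate results. AIM2, the DNA sensor of an inflammasome, rose by 1.03 with overexpression and fell by 0.54 with knockdown. MAVS, the adaptor of RIGI and IFIH1, fell by 0.48 between the controls. A second list of 37 measured interferon-stimulated genes, none of them among the 43, had 3 rises and 11 falls between the controls, where 16.2% of all genes rose and 15.3% fell. Like the 43, it was chosen with earlier results of these data known, so it is not an independent check. Across deliveries it had 3 rises and 12 falls, where 16.1% of all genes rose and 11.7% fell. With overexpression 3 rose and 4 fell, and with knockdown 3 rose and 3 fell. NMI, an interferon-induced partner of IFI35, rose by 0.42 with knockdown and fell by 0.49 between the controls. APOL1 fell by 0.33 with overexpression, rose by 0.22 with knockdown and fell by 0.45 between the controls. CCL5, a chemokine, rose by 0.79 with overexpression and fell by 0.47 between the controls.

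CXCL10, a T cell chemokine, had larger changes than any listed member with knockdown and between the controls. Its means were 5.67 with knockdown, 8.57 with scrambled shRNA, 7.08 with overexpression and 6.30 with empty vector. It fell by 2.89 with knockdown, rose by 0.79 with overexpression and rose by 2.27 between the controls. Among 12 measured IRF factors and interferon gamma targets, 5 were higher and 1 lower in scrambled shRNA minus empty vector. With overexpression 3 rose and 1 fell, and with knockdown 0 rose and 2 fell. Of all genes, 16.2% rose and 15.3% fell between the controls, 3.61% and 3.37% with overexpression, and 8.79% and 5.22% with knockdown. ICAM1, an adhesion molecule, rose by 1.46 between the controls, where PSMB9 and RSAD2 fell, and fell by 1.75 with knockdown. WARS1, a tRNA synthetase induced by interferon gamma, rose by 0.34 between the controls.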

How the data were processed

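Deposited values are log2 levels, from 2.07 to 14.4, for each probe set on each array. The authors used Affymetrix Expression Console, per the submitters' processing notes; its version and summarisation are not stated there, and the log2 scale was inferred from the values. Of 22277 probe sets, 62 controls were left out, and 19064 had 1 gene symbol in the platform annotation (1043 several, 2108 none), with names checked in RefSeq (GRCh38.p14). The probe set with the highest mean gave 11963 genes. limma 3.58.1 in R 4.3.3 was fitted to all 12 arrays with 1 coefficient per group (lmFit, eBayes), two-sided, with Benjamini-Hochberg adjustment over all genes and a threshold of 0.05. The fit was tested on simulated data. Members and lists were chosen with earlier results of these data known. Array values are given for the 20 called members with the smallest adjusted p, the brightest and the dimmest, and up to 4 called genes of each pathway list are named. Replicates are not labelled as separate cultures; p-values therefore cover only the spread of these arrays, which may be technical. The number of arrays limits precision; there is no depth.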

Additional observations from a re-analysis of the deposited data

Results flagged for a closer look

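For 16 members the effect of CXXC5 overexpression, against empty vector, differed from that of knockdown, against scrambled shRNA, in limma's test of the difference (adjusted p under 0.05). Over all genes 20.4% did so. The differences, overexpression effect minus knockdown effect in log2, were -1.62 for PSMB9, -1.11 for PSMB8, -0.90 for RSAD2, -0.69 for UBE2L6, -0.73 for IFI16, -0.91 for TRIM22, -0.41 for ISG15, -0.33 for TAP1, -0.46 for IFIT3 and -0.58 for RIGI. They were 0.74 for HERC5, 0.90 for GBP2, 0.38 for IFITM2, 0.43 for IRF9, 0.24 for IFITM1 and 0.27 for IFITM3. By its construction the same contrast sets overexpression and scrambled shRNA against empty vector and knockdown. It is thus also the test of higher against lower CXXC5 label, averaged over deliveries. Opposite effects of overexpression and knockdown give a difference here, so a call need not be an anomaly. With its sign turned, the contrast compares the lentiviral minus nucleofected difference between the labelled and the control groups. The calls of IFITM1, IFITM3 and RIGI each ended without any of 10 of the 12 arrays in turn, that of IRF9 without any of 5 (adjusted p up to 0.061) and that of TRIM22 without any of 3 (adjusted p up to 0.0573). The call of IFIT3 ended with median centring, and that of IFITM1 with quantile normalization.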

How the results depend on the processing

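Of 70 calls of members over the 6 comparisons, 44 were kept under all alternatives run, 25 ended without at least 1 array, 15 ended under at least 1 other setting, and 0 changed sign. With only the arrays of the groups compared, 5 members were called with overexpression (2 up, 3 down) and 5 with knockdown (5 up, 0 down), against 8 in each; over all genes 583 and 1018 were called, against 835 and 1677. After dropping the dimmest 40% of genes, 8 of the 19 members tested were called across deliveries, against 13 of 43. Over all genes 2670 of 7178 were then called, against 3323 of 11963. Leaving out each array in turn gave 4 to 6 with overexpression, 4 to 8 with knockdown, 11 to 13 in scrambled shRNA minus empty vector, 8 to 11 in knockdown minus overexpression, 10 to 13 across deliveries and 12 to 17 for the difference of effects. The ranges over all genes were 380 to 606, 1134 to 1529 and 2593 to 3586 for the first of these comparisons. For the others they were 1094 to 1496, 2484 to 3184 and 1864 to 2421. With the replicate number as a block the counts were 7, 9, 16, 11, 15 and 16 in the same order, and ISG15 with overexpression and IFITM3 with knockdown and for the difference of effects were not called. Counts over all genes with this block were 877, 1891, 4106, 2060, 3626 and 2630. Without it they were 835, 1677, 3768, 1835, 3323 and 2442. Same-numbered arrays deviated together unevenly, with correlations from -0.0144 to 0.334 for overexpression with empty vector and from -0.034 to 0.271 for knockdown with scrambled shRNA. They ran from -0.0879 to 0.134 for scrambled shRNA with empty vector and from 0.00742 to 0.395 for knockdown with overexpression. In these pairs, in the same order, 4, 2, 2 and 3 of 6 arrays were closest to their own number, so the numbers were not taken to pair the samples. Background and detection could not be examined without scanner files.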
